A study of Homo sapiens with 8 samples.

Results

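The 35 genes described here encode aminoacyl-tRNA synthetases, 19 that work in the cytosol and 16 that work in mitochondria. They were chosen by name: every probe set whose gene symbol in the platform's probe table, after updating older names, is one of the 35 was taken. All 35 genes were found, on 37 probe sets of the 21214 that carry a gene name, and among 18417 named genes in all. VARS1 and VARS2 have 2 probe sets each, and the brighter one stands for the gene. The 2 of VARS1 read the same on all 8 arrays, and the 2 of VARS2 differed slightly and had no opposite sign in any comparison. The aspartyl enzymes were not analysed here.

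RNA came from T47D, an established oestrogen receptor positive luminal breast carcinoma line. Lentivirus had brought a conditional shRNA into the cells, either against EglN2 (the EglN2 shRNA line) or the Scr control (the Scr line). Per the design text, doxycycline was given for 0 h (day 0) or 48 h (day 2), while the treatment protocol lists 1 ug/ml for every sample, day 0 included. Day 0 is taken here as untreated, and each of the 4 groups has 2 Affymetrix Human Gene 1.0 ST arrays. Within a line, doxycycline, time in culture and hairpin induction cannot be told apart. The labels do not say whether the infected cells were a pool or a clone, or whether replicates were separate cultures, so p-values measure only how these samples scatter, which may be technical scatter.

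An aminoacyl-tRNA synthetase joins one kind of amino acid to its tRNA, so that the ribosome can read the genetic code. Most amino acids have one nuclear gene for the cytosolic enzyme and another for the mitochondrial enzyme, while GARS1 and KARS1 supply both compartments. Several cytosolic synthetases sit together in the multisynthetase complex on the scaffold proteins AIMP1, AIMP2 and EEF1E1. Many cytosolic synthetase genes are known targets of ATF4, the transcription factor of the amino acid response, which binds composite C/EBP-ATF elements.

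Values are log2 levels, where a difference of 1 is a doubling, and array medians ran from 7.81 to 7.86 over the named probe sets. Arrays of the same group correlated at 0.992 to 0.996 across probe sets. EGLN2, the target, is read by a probe set shared with RAB4B-EGLN2. It stood at 8.85 and 9.04 before and 8.26 and 8.29 after doxycycline in the EglN2 shRNA line, a change of -0.67 (SE 0.11, adjusted p = 0.134, limma), and the Scr line's difference was -0.13. All 9 luminal markers were bright, with means from 9.76 for ESR1 to 14.10 for KRT18. The leukocyte markers measured averaged from 4.24 for PTPRC to 7.73 for CD68. Endothelial markers ran from 5.745 for PECAM1 to 6.16 for CDH5, and fibroblast markers from 4.57 for DCN to 8.68 for COL1A1. The basal markers KRT5 and KRT14 averaged 6.82 and 8.15. In bulk RNA, fewer cells of a type and less RNA per cell cannot be told apart.

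Averaged over both lines, the day 2 minus day 0 difference of the cytosolic synthetases had a higher median than that of the mitochondrial ones. The cytosolic genes were also brighter, with array medians from 11.68 to 11.82, against 9.065 to 9.32 for the mitochondrial ones. The gap between these array medians of levels did not show the same contrast. In the EglN2 shRNA line it was 2.5 and 2.595 at day 0 and 2.555 and 2.565 at day 2. In the Scr line it was 2.635 and 2.59 and then 2.54 and 2.52. Whether brightness plays a part in the difference of the median changes was not tested. Of the 19 cytosolic genes, 14 had a positive mean change, with a median of 0.16, where 48% of all probe sets were above 0. Of the 16 mitochondrial genes, 8 had a positive mean change, with a median of 0, and the median over all 21214 probe sets was -0.005. The 2 medians of the synthetases differed by 0.16, and by 0.13 to 0.20 when each array was left out in turn; no test was made of this difference. The cytosolic count stayed at 13 or 14 over these 8 settings, while the mitochondrial one ran from 6 to 13, with 13 without the first EglN2 shRNA day 0 array. CARS1 was the one synthetase that passed the test (Benjamini-Hochberg adjusted p under 0.05 over all named probe sets, limma), among 25 higher probe sets, 0.118% of those tested, with another 0.0236% lower. At an unadjusted p under 0.05, 10 cytosolic genes and 1 mitochondrial gene were higher and none was lower, against 6.47% of all probe sets higher and 4.27% lower. The day 2 arrays lay above the day 0 arrays in both lines for 11 cytosolic genes and 1 mitochondrial gene, and 5.24% of all probe sets did so. No synthetase lay lower without overlap in both, against 4.07% of all.

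**Figure D1:**
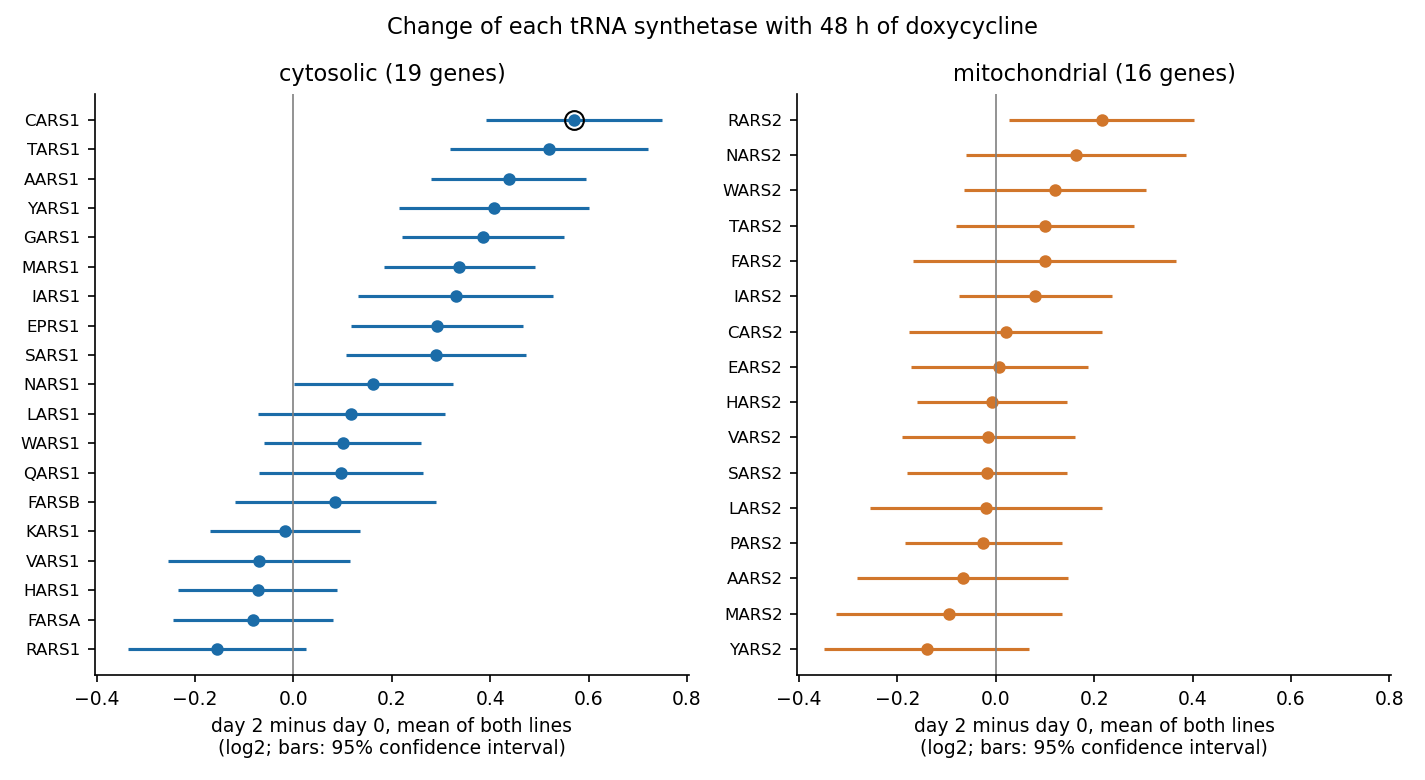
Mean log2 change from day 0 to day 2 over both lines (horizontal axis, points) of the 19 cytosolic (left panel) and 16 mitochondrial (right panel) synthetases, with 95% confidence intervals from limma as bars; the ring marks the gene past the threshold. CARS1 lies furthest to the right at 0.57 and RARS1 furthest to the left at -0.155.

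CARS1 charges the cytosolic tRNA for cysteine. Its level was 9.70 and 9.87 at day 0 and 10.31 and 10.47 at day 2 in the EglN2 shRNA line, and 9.52 and 9.65 at day 0 and 10.10 and 10.14 at day 2 in the Scr line. Both day 2 arrays lay above both day 0 arrays in each line. CARS1 rose by 0.57 (SE 0.08, adjusted p = 0.0371, limma), a 1.48-fold increase, by 0.605 in the EglN2 shRNA line and 0.535 in the Scr line. Leaving out any 1 of the 8 arrays ended the call, with changes of 0.53 to 0.61 and adjusted p from 0.0555 to 0.213.

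AARS1, the cytosolic alanyl enzyme, stood at 11.94 and 12 before and 12.43 and 12.47 after doxycycline on the EglN2 shRNA arrays. The Scr arrays gave 11.76 and 11.84 before and 12.16 and 12.23 after. The day groups did not overlap in either line, and the mean change was 0.44 (SE 0.07, adjusted p = 0.0556). TARS1, the cytosolic threonyl enzyme, stood at 11.19 and 11.29 before and 11.84 and 11.72 after on the EglN2 shRNA arrays, and at 10.87 and 11.19 before and 11.58 and 11.48 after on the Scr arrays. Its day groups did not overlap either, and its mean change was 0.52 (SE 0.09, adjusted p = 0.0769). AARS1 and TARS1 both missed the threshold.

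The next cytosolic genes by mean change were YARS1 at 0.41, GARS1 at 0.385, MARS1 at 0.34, IARS1 at 0.33, EPRS1 at 0.29 and SARS1 at 0.29, with adjusted p from 0.101 to 0.266. These charge tyrosine, glycine, methionine, isoleucine, glutamate with proline (EPRS1 joins both activities in one protein) and serine. GARS1 read 12.14 and 12.21 before and 12.55 and 12.53 after in the EglN2 shRNA line, and 11.91 and 12.08 and then 12.42 and 12.38 in the Scr line. MARS1 read 11.85 and 11.86 and then 12.22 and 12.23 in the EglN2 shRNA line, and 11.77 and 11.69 and then 12.03 and 12.04 in the Scr line. In both genes every day 2 array was above every day 0 array of its line. The asparaginyl enzyme NARS1 had a mean change of 0.16. LARS1, WARS1, QARS1 and FARSB lay between 0.085 and 0.12, and KARS1, VARS1, HARS1, FARSA and RARS1 between -0.155 and -0.02.

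**Figure D2:**
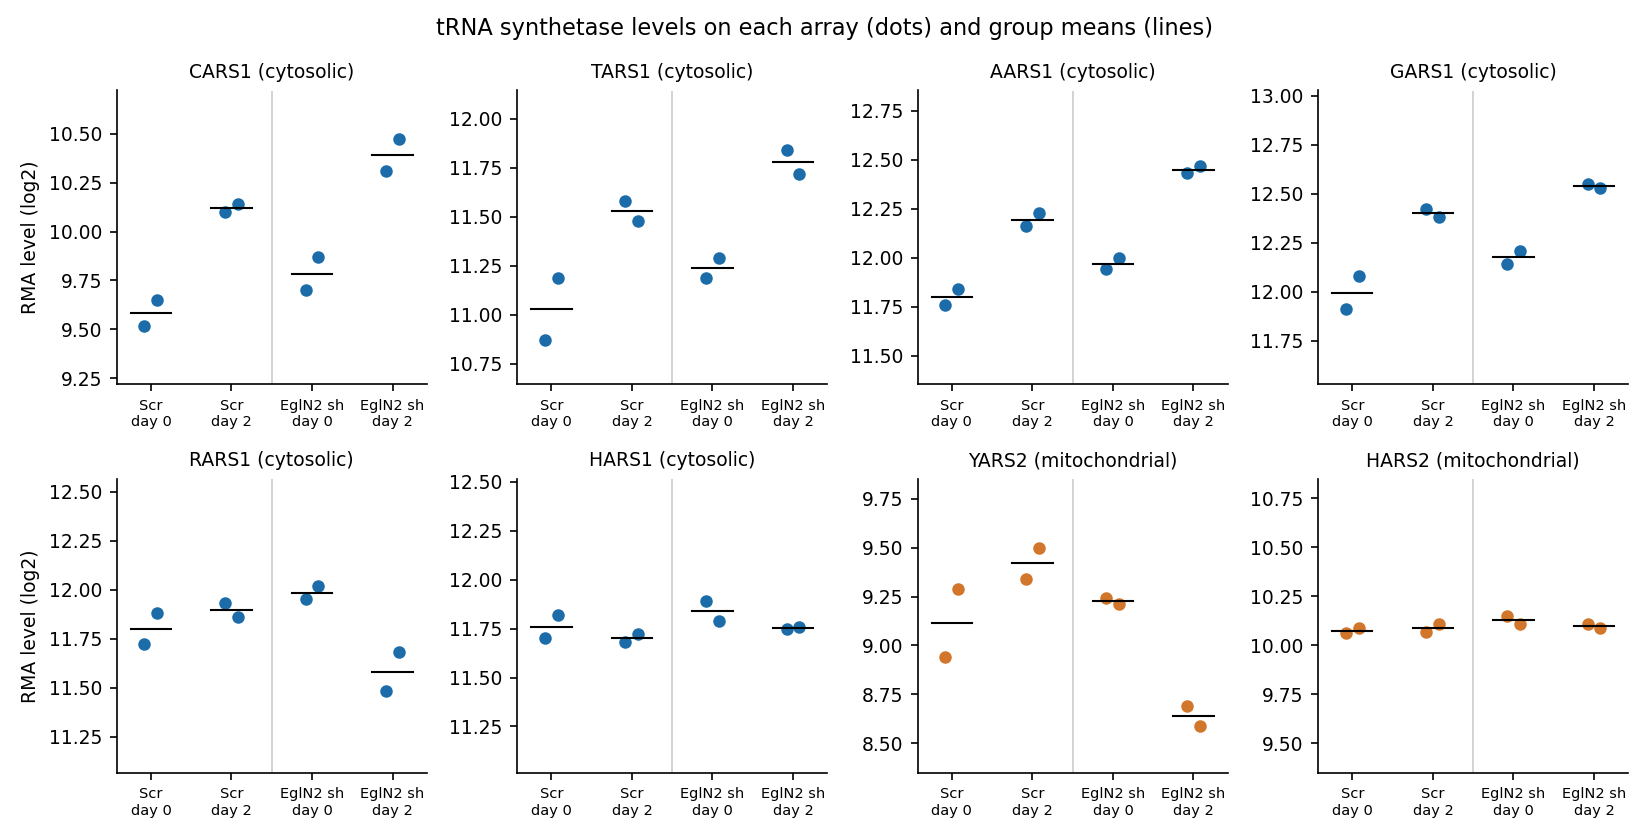
Deposited log2 level of 8 synthetases, 1 to a panel, by line and day; each point is 1 array and each line the mean of its group. The day 2 points of CARS1, TARS1, AARS1 and GARS1 lie above the day 0 points in both lines, while those of YARS2 lie below them in the EglN2 shRNA line and above them in the Scr line.

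Among mitochondrial genes, the largest mean change was that of RARS2, the arginyl enzyme, at 0.215 (SE 0.08, adjusted p = 0.415). RARS2 read 9.71 and 9.74 and then 9.77 and 9.91 in the EglN2 shRNA line, and 9.36 and 9.64 and then 9.81 and 9.82 in the Scr line. Its day 2 arrays were above its day 0 arrays in each line, by little in the EglN2 shRNA line. NARS2, the asparaginyl enzyme, read 9.58 and 9.67 and then 9.64 and 9.85 in the EglN2 shRNA line, and 9.19 and 9.56 and then 9.51 and 9.65 in the Scr line. Its day groups overlapped in both lines and its mean change was 0.16 (adjusted p = 0.593). WARS2, the tryptophanyl enzyme, read 8.59 and 8.49 and then 8.64 and 8.55 in the EglN2 shRNA line, and 8.24 and 8.5 and then 8.58 and 8.53 in the Scr line, and its mean change was 0.12. TARS2 and FARS2 followed at 0.10. The other 11 genes lay between -0.14, for YARS2, and 0.08, for IARS2. Among them, MARS2 read 9.34 and 9.04 and then 9.04 and 9.03 in the EglN2 shRNA line, a change of -0.155. In the Scr line it read 8.81 and 9 and then 8.71 and 9.03.

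The cytosolic genes were also divided by the multisynthetase complex and by the structural class of the enzyme. The 7 genes of the complex had a median change of 0.12 and the 12 outside it 0.23. Class I enzymes, which bind ATP in a Rossmann fold, had a median of 0.12 over 9 genes, and class II enzymes, built on an antiparallel sheet, had 0.16 over 9, with EPRS1, which has an activity of each class, left out of both. These differences were not tested.

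A short sequence recurs at or near the start sites of several cytosolic genes. In the RefSeq promoter table (GRCh38.p14, 250 bases before to 50 after the start), 30 of the 35 genes have a window. The motif TGATGNAA, the core of the amino acid response element, was searched on both strands, and the form TGATGCAA, which it contains, was counted apart; read on the other strand this form is TTGCATCA. TGATGNAA was found in 7 of 16 cytosolic genes with a window (43.8%), 1 of 14 mitochondrial genes (7.14%) and 4.46% of all genes, and in 3.62% of all windows. The exact form TGATGCAA was found in 6 of 16 cytosolic genes, 0 of 14 mitochondrial genes and 1.08% of all genes. Among the ATF4 target genes described below, 17 have a window. Of these, 4 held TGATGNAA (23.5%) and 1 held TGATGCAA (5.88%). The 7 cytosolic genes with TGATGNAA are CARS1, TARS1, AARS1, GARS1, MARS1, IARS1 and NARS1. EPRS1 and SARS1, which also have a window, held no match. A match is a description of letters, not a binding site.

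Among the cytosolic genes with a match, the promoters of the 6 with the largest mean change are printed, to show where the motif lies. It is in capitals, 5′ to 3′ on the strand of the gene. Only genes with a match could be printed, and YARS1, with a mean change of 0.41, has no window. CARS1 is at chr11:3057394-3057513 (minus strand), TARS1 at chr5:33440875-33440994 (plus), AARS1 at chr16:70289607-70289726 (minus), GARS1 at chr7:30594788-30594907 (plus), MARS1 at chr12:57487978-57488097 (plus) and IARS1 at chr9:92293668-92293787 (minus). Each shows 120 bases, from 90 before to 30 after the start, except AARS1, shown from 220 before the start.
CARS1: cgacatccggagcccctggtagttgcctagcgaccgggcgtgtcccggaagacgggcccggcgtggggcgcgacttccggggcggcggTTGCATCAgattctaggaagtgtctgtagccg
TARS1: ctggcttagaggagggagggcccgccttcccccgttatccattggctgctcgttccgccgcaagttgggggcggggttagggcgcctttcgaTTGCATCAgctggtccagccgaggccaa
AARS1: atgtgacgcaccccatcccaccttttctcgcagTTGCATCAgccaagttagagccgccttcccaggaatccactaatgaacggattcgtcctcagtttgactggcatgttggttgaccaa
GARS1: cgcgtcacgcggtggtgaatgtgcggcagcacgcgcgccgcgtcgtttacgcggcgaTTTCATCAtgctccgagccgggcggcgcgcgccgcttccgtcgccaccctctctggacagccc
MARS1: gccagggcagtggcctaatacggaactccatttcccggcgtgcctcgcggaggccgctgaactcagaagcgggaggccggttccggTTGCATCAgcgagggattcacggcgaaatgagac
IARS1: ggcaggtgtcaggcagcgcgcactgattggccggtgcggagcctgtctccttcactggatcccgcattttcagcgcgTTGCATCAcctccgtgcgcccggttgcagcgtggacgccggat
In all 6 the motif lies on the strand opposite to the gene. CARS1, TARS1 and MARS1 hold it within 10 bases of the start, IARS1 and GARS1 a little upstream, and AARS1 at positions -187 to -180, counted from the start site as 1 with no 0. NARS1 holds it from 15 to 22 after the start, on the strand of the gene. VARS1, VARS2, YARS1, AARS2 and LARS1 have no window in the table used here.

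HARS1 and HARS2, the cytosolic and mitochondrial histidyl enzymes, lie head to head, and 84 bases separate their starts at chr5:140691371-140691454. The stretch is shown, on the plus strand, because it lies between a gene of each compartment.
HARS1-HARS2: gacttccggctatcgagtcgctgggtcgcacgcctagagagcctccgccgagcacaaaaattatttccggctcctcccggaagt
It holds no TGATGNAA on either strand, so nothing is capitalised. HARS1 read 11.89 and 11.79 and then 11.75 and 11.76 in the EglN2 shRNA line, and 11.70 and 11.82 and then 11.68 and 11.72 in the Scr line. HARS2 read from 10.06 to 10.15 on all 8 arrays. The day groups of HARS1 overlapped in the Scr line, and those of HARS2 met or overlapped in both. Their mean changes were -0.07 (95% interval -0.23 to 0.09) and -0.01 (-0.16 to 0.14).

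The comparison was repeated for each amino acid with both enzymes measured, 17 pairs in all. In the EglN2 shRNA line the cytosolic gene had the larger change in 13 pairs, in the Scr line in 11, and over both lines in 10, with NARS1 and NARS2 equal. The median difference within a pair was 0.25 over both lines, from -0.37 for RARS1 against RARS2 to 0.55 for CARS1 against CARS2. TARS1 exceeded TARS2 by 0.42, AARS1 exceeded AARS2 by 0.505 and MARS1 exceeded MARS2 by 0.43. For phenylalanine, FARSA and FARSB, the 2 subunits of the cytosolic enzyme, differed from FARS2 by -0.18 and -0.015. Pairs share arrays and some share a gene, so these are counts and not replicates.

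**Figure D3:**
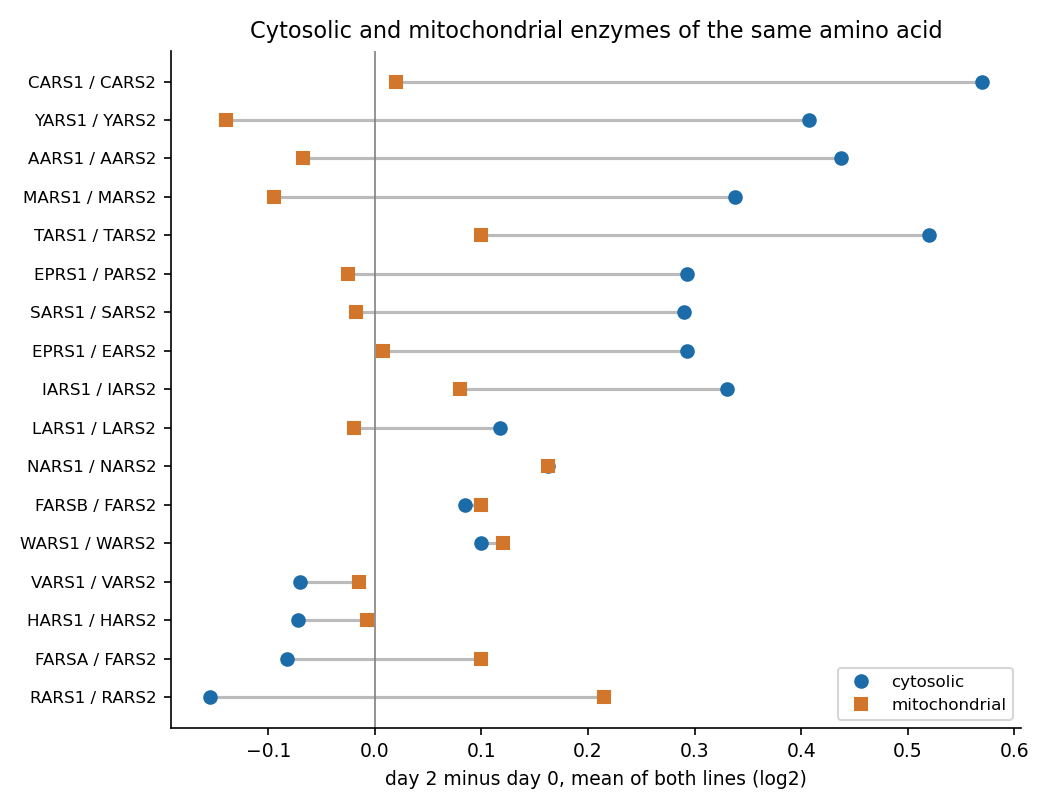
Mean log2 change from day 0 to day 2 over both lines (horizontal axis) of the cytosolic (dots) and mitochondrial (squares) synthetase of each of 17 pairs, joined by a line. The 2 points of NARS1 and NARS2 coincide. Cytosolic genes lie furthest to the right of their partners for cysteine, tyrosine, alanine, methionine and threonine. They lie to the left in 6 pairs, furthest for arginine.

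In each line alone, 14 cytosolic and 7 mitochondrial genes were above 0 in the EglN2 shRNA line (51.1% of all probe sets), and 16 and 10 in the Scr line (47.7%). The cytosolic medians were 0.175 and 0.205. The mitochondrial medians were -0.03 and 0.045, the latter turning to -0.02 under quantile normalization, under which the cytosolic medians stayed above 0. In the EglN2 shRNA line the mitochondrial count and median turned on 1 array: without the first day 0 array of that line, 12 of 16 were above 0 with a median of 0.035, and the count fell to 5 without the second day 0 or the first day 2 array. The cytosolic counts stayed at 13 or 14 in the EglN2 shRNA line and 15 or 16 in the Scr line. No synthetase passed the threshold in either line (limma), where 2 probe sets (0.00943%, both lower) and 0 of all tested were called. At an unadjusted p under 0.05, 9 cytosolic genes were higher and 1 lower in the EglN2 shRNA line (2.73% and 3.04% of all probe sets), and 9 were higher and 0 lower in the Scr line (7.49% and 5.36%). Among mitochondrial genes 0 were higher and 1 lower in the EglN2 shRNA line, and 2 were higher and 0 lower in the Scr line. The day groups did not overlap, with day 2 higher, for 12 cytosolic genes in each line (15.2% and 23% of all probe sets), and with day 2 lower for 4 and 1 (15.5% and 24.8%). Among mitochondrial genes day 2 was higher without overlap for 1 and 5 and lower for 1 and 0. Of the cytosolic genes, 13 had positive changes in both lines, 2 negative in both and 4 opposite signs. For 17 of the 19, the 2 changes differed by less than 1 SE of their difference, and for 13 of the 16 mitochondrial genes.

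**Figure D4:**
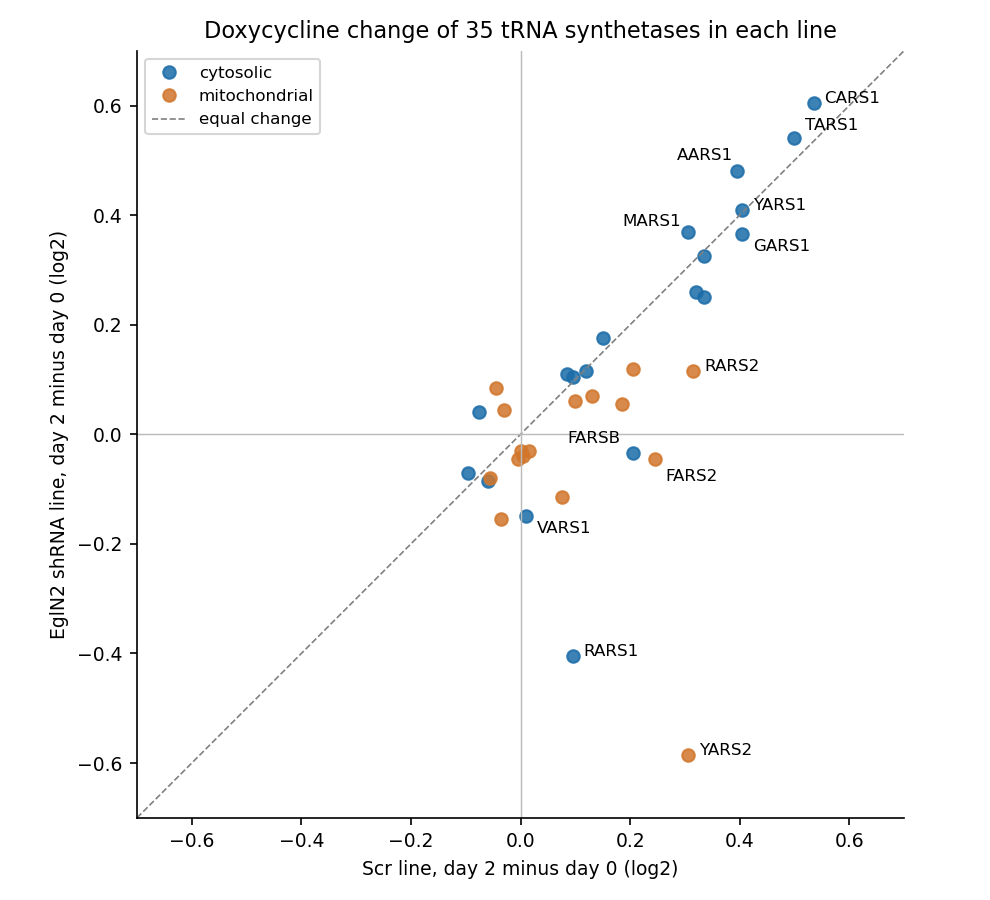
Log2 change from day 0 to day 2 of each synthetase in the Scr line (horizontal) and the EglN2 shRNA line (vertical), with the diagonal of equal change. Most cytosolic genes lie near the diagonal, up to CARS1 at 0.535 and 0.605, while RARS1 and YARS2 lie below it.

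Of all 35, YARS2 and RARS1 differed most between the lines. YARS2, which charges mitochondrial tyrosine tRNA, stood at 9.24 and 9.21 before and 8.69 and 8.59 after doxycycline on the EglN2 shRNA arrays. The Scr arrays gave 8.94 and 9.29 before and 9.34 and 9.5 after. Day 2 was below day 0 on every array of the EglN2 shRNA line, and above it on every array of the Scr line, with no overlap. Of all probe sets, 5.69% moved in opposite directions without overlap, whichever line rose. The changes were -0.585 (SE 0.13, adjusted p = 0.333) and 0.305 (adjusted p = 0.382), and their difference was -0.89 (SE 0.19, 95% interval -1.31 to -0.47, unadjusted p = 0.000844, adjusted p = 0.596, limma). The difference missed the threshold. No probe set passed for the difference of changes, where 1511 of all tested had an unadjusted p under 0.05. The difference was above 0 for 10 cytosolic and 2 mitochondrial genes (51% of all). These counts were not stable: when each array was left out they ran from 7 to 14 and from 2 to 8, with 8 without the first EglN2 shRNA day 0 array and 6 without the second Scr day 0 array. The 2 lines' changes did not overlap, with the EglN2 shRNA line higher, for 2 cytosolic genes (10.2% of all), and lower for 1 gene of each compartment (10.5%).

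RARS1, the cytosolic arginyl enzyme and a member of the complex, stood at 11.95 and 12.02 and then 11.48 and 11.68 in the EglN2 shRNA line. The Scr arrays gave 11.72 and 11.88 and then 11.93 and 11.86. Its EglN2 shRNA arrays separated by day, with day 2 the lower, and its Scr arrays overlapped. The changes were -0.405 (adjusted p = 0.535) and 0.095, and their difference -0.50 (SE 0.16, 95% interval -0.86 to -0.14, unadjusted p = 0.0116, adjusted p = 0.676). At an unadjusted p under 0.05 for the difference, 1 cytosolic and 1 mitochondrial gene were lower, and none was higher, against 3.98% and 3.14% of all probe sets. FARSB, which read 11 on both day 0 arrays and 11 and 10.93 at day 2 of the EglN2 shRNA line, and 10.59 and 10.96 and then 10.95 and 11.01 in the Scr line, had a difference of -0.24 (adjusted p = 0.762). Only the first Scr day 0 array of FARSB stood apart, below the others. VARS1, the valyl enzyme, read 10.60 and 10.59 and then 10.46 and 10.43 in the EglN2 shRNA line, against 10.69 and 10.43 and then 10.5 and 10.64 in the Scr line, and its difference was -0.16. The remaining differences of changes lay from -0.29 for FARS2 to 0.13 for CARS2, and the intervals of all of these included 0. FARS2 read 9.15 and 8.91 and then 8.86 and 9.11 in the EglN2 shRNA line. Its Scr arrays gave 8.47 and 8.97 and then 8.98 and 8.95.

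The YARS2 promoter holds the form TGATGGAA at positions -197 to -190; it is shown from chr12:32755998-32756117 (minus strand, 120 bases starting 220 before the start). It was chosen after its values were seen, as the mitochondrial gene with a match and the one furthest from the cytosolic pattern.
YARS2: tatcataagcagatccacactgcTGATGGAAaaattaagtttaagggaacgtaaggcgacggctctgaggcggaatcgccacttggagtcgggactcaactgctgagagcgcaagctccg
The motif lies on the strand of the gene, unlike in the 6 cytosolic promoters printed.

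Between the lines, before doxycycline, all 19 cytosolic genes had a higher mean in the EglN2 shRNA line than in the Scr line, with a median difference of 0.155 (50.4% of all probe sets were above 0). The mitochondrial median was 0.12, positive in 12 of 16. No synthetase passed the test (limma), where 0 of all 21214 probe sets were called. At an unadjusted p under 0.05, 1 cytosolic gene, EPRS1, was higher, against 5.16% of all probe sets higher and 5.27% lower. EPRS1 read 12.09 and 12.20 in the EglN2 shRNA line and 11.79 and 11.99 in the Scr line, a difference of 0.255 (SE 0.11, adjusted p = 0.472). The lines did not overlap at day 0 for 12 cytosolic and 6 mitochondrial genes, all higher in the EglN2 shRNA line (22.2% of all probe sets higher, 22.9% lower). By moderated t, LARS1, the leucyl enzyme, and CARS1 came next. LARS1 read 12.28 and 12.35 in the EglN2 shRNA line and 12 and 12.20 in the Scr line, a difference of 0.215, and CARS1 differed by 0.20. FARSB, at 0.225, and TARS1, at 0.21, had differences of like size with a larger error. FARS2, the phenylalanyl enzyme, read 9.15 and 8.91 in the EglN2 shRNA line and 8.47 and 8.97 in the Scr line, a difference of 0.31. MARS2, the methionyl enzyme, read 9.34 and 9.04 in the EglN2 shRNA line and 8.81 and 9 in the Scr line, a difference of 0.285, and that of RARS2 was 0.225. The lines overlapped for FARS2 and did not for MARS2. The adjusted p of LARS1, CARS1, FARS2, MARS2 and RARS2 lay from 0.5 to 0.523 (limma). Those of FARSB and TARS1 were 0.525 and 0.54. The first Scr day 0 array was the lowest of the 8 for the cytosolic genes, with a median deviation from each gene's mean of -0.27, and the second stood at -0.11. Without the first Scr day 0 array, 18 of 19 cytosolic genes were above 0 at day 0 and 1 was at 0, with a median of 0.095, and 13 of 16 mitochondrial genes were above 0, with a median of 0.06. The mean change over both lines then had a cytosolic median of 0.19 and a mitochondrial median of 0.05. At day 0 the cytosolic median minus the mitochondrial one was 0.03, and ran from -0.07 to 0.15 when each array was left out, so its sign was not stable.

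At day 2 the cytosolic median difference between the lines was 0.14 and the mitochondrial 0.03. In the EglN2 shRNA line 16 cytosolic and 11 mitochondrial genes had the higher mean (50.7% of all). The mitochondrial count fell to 6 and its median to -0.0025 without the first EglN2 shRNA day 2 array, while the cytosolic count stayed between 15 and 17 over all arrays left out. No synthetase passed (limma), although 16 probe sets did (0.0754%), 0.00943% higher and 0.066% lower. At an unadjusted p under 0.05, 2 cytosolic genes and 1 mitochondrial gene were higher and 1 of each was lower (2.49% and 2.69% of all). The lower ones were RARS1 at -0.315 (adjusted p = 0.798) and YARS2 at -0.78 (SE 0.13, adjusted p = 0.107). The higher ones were AARS1 at 0.255, CARS1 at 0.27 and CARS2 at 0.32. CARS2, the mitochondrial cysteinyl enzyme, read 9.55 and 9.30 in the EglN2 shRNA line and 9.08 and 9.13 in the Scr line, without overlap (adjusted p = 0.861). The lines did not overlap, with the EglN2 shRNA line higher, for 15 cytosolic genes and 1 mitochondrial gene (15.6% of all), and lower for 2 and 4 (14.8%).

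**Figure D5:**
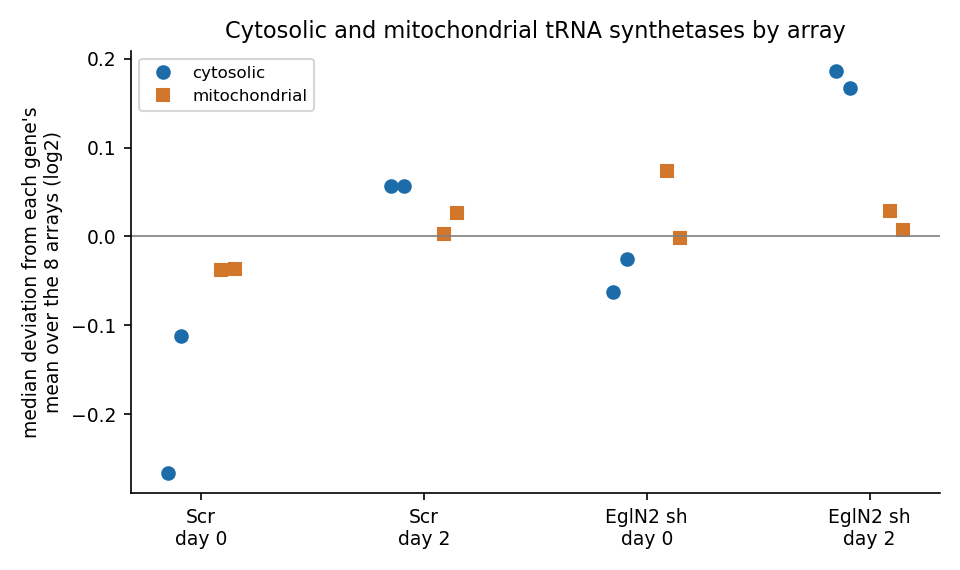
Median deviation of the cytosolic and the mitochondrial synthetases from each gene's mean over 8 arrays (vertical, log2), for each array grouped by line and day. The cytosolic median is lowest on the Scr day 0 arrays at -0.27 and -0.11 and highest on the EglN2 shRNA day 2 arrays at 0.19 and 0.17, while the mitochondrial medians stay between -0.04 and 0.07.

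Other genes of charging and its control were measured in the same way. Of the scaffold proteins, AIMP1 had a mean difference of -0.015 over both lines (adjusted p = 0.966), and AIMP2 and EEF1E1 were not analysed here. TARS3, a second threonyl enzyme gene, had a mean difference of 0.175 (adjusted p = 0.498), made of -0.04 in the EglN2 shRNA line and 0.39 in the Scr line. Their difference of -0.43 had an unadjusted p of 0.0295 and an adjusted p of 0.68 (limma). The 4 helpers that build mitochondrial charged tRNAs, such as the formyltransferase MTFMT at 0.15, had a median of 0.07, and none passed. Of 20 tRNA maturation genes, 9 had positive changes, the median was -0.02 and none passed; 3 were higher at an unadjusted p under 0.05 (6.47% of all), ELAC1 at 0.25, TSEN15 at 0.225 and RPP14 at 0.185. Of 8 elongation factors 7 were positive, with a median of 0.06 and TSFM, a mitochondrial factor, at 0.22, and none passed.

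ATF4 itself stood at 11.51 and 11.56 and then 12.03 and 12 in the EglN2 shRNA line, and 11.31 and 11.50 and then 11.86 and 11.74 in the Scr line. Every day 2 array was above every day 0 array of its line, and the mean change was 0.44 (SE 0.08, adjusted p = 0.0837, limma). A dimmer ATF4 probe set had a mean difference of 0.205. Of 22 ATF4 target genes outside the synthetases, 4 had negative mean changes, ATF3 did not change on average and the others were positive. Their median was 0.38 (48% of all probe sets were above 0), and 6 rose (limma, 0.118% of all). PSAT1 and PHGDH of serine synthesis rose by 0.765 and 0.54, ALDH1L2 of mitochondrial folate metabolism by 0.82 and PCK2 by 0.56. SLC7A5, an amino acid transporter, stood at -0.43 and ATF5 at -0.325, and neither passed. The list was written with results of these arrays known and is not independent evidence. A list of 7 genes, ATF4 together with 6 genes of the eIF2 pathway, had a median of 0.04, and none passed.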

How the data were processed

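RNA of 8 T47D samples was hybridised to Affymetrix Human Gene 1.0 ST arrays. The authors deposited log2 levels of probe sets. The submitters' processing notes name RMA and Affymetrix Expression Console. The versions and the array's genome build were not given in the sources used here. Background correction and normalization by RMA can shrink differences of dim genes. Values were used without further scaling. Of 33297 probe sets, 19460 had 1 gene name, 1754 several and 12083 none; names were updated through the RefSeq table of GRCh38.p14, which matched 19429.

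A single model of 4 group means over the 8 arrays was fitted by limma 3.58.1 under R 4.3.3 (lmFit, eBayes; 4 residual and 5.53 prior degrees of freedom, prior SD 0.124), without a block for the replicate number. All tests are two-sided; p was adjusted with the Benjamini-Hochberg method across the 21214 named probe sets, with a threshold of 0.05. The number of arrays limits the precision: with 2 arrays against 2 the smallest p of an exact permutation test is 0.333, and it was left out. The script was tested on simulated data. Groups and replicate numbers came from the sample titles. Alternatives were other feature sets, scalings, priors, a replicate block and leaving out each array.

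Values per array are given for the synthetases past the threshold and for the 3 of largest moderated t in each comparison and compartment. The members and lists were chosen with earlier results of these data known. Same-numbered arrays of different groups had deviations correlated at 0.0981 to 0.271, all positive. With only 2 numbers this does not show whether the samples were paired.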

Additional observations from a re-analysis of the deposited data

Results flagged for a closer look

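YARS2, the mitochondrial tyrosyl synthetase, had lower levels at day 2 in the EglN2 shRNA line and higher levels in the Scr line, on every array and without overlap, and its difference of changes was -0.89 (limma adjusted p = 0.596). KARS1, the lysyl synthetase of both compartments, was higher at day 2 on every array of the EglN2 shRNA line and lower on every array of the Scr line, with a difference of changes of 0.115 (adjusted p = 0.85). KARS1 read 11.92 and 11.91 and then 11.94 and 11.97 in the EglN2 shRNA line, and 11.83 and 11.88 and then 11.76 and 11.80 in the Scr line. Among all named probe sets 1207, or 5.69%, moved in opposite directions in the 2 lines without overlap, so a few among 35 genes is near the background.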

How the results depend on the processing

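Counts of calls depended on the settings, and the cause was not tested. For all probe sets, the EglN2 shRNA line's change gave 2 calls, 1 with one probe set per gene, 0 with all probe sets of the table or with only the arrays of the comparison, 4 with only the brighter probe sets, and 0 to 2 when each array was left out. The Scr line's change gave 0 calls, 7 with the brighter probe sets, 6 with a prior variance following intensity, and 0 when each array was left out. The mean of both lines gave 30 calls, 0 with all probe sets, 75 with the brighter ones, 76 with the intensity prior, and 0 to 20 when each array was left out. The difference of changes gave 0 calls and 2 with the intensity prior. Between the lines at day 2 there were 16 calls, 0 with all probe sets or only the arrays of the comparison, 34 with the brighter ones, 26 with the intensity prior, and 0 to 15 when each array was left out.

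For the synthetases, the mean of both lines called 1 (CARS1), 2 with one probe set per gene, 0 with all probe sets or with arrays centred on their median, 5 with the brighter probe sets and 5 with the intensity prior (CARS1, AARS1, TARS1, GARS1 and MARS1 in both), and 0 to 0 when each array was left out. CARS1 kept a positive mean change in all of these. At day 2 between the lines 0 were called, and 1, YARS2, with the brighter probe sets. The difference of changes of CARS1, 0.07, turned to -0.015 without EglN2 shRNA day 0 replicate 1 and to -0.01 without EglN2 shRNA day 2 replicate 2, and ran from -0.015 to 0.155 over the arrays left out.

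With the replicate number as a block, which the samples' deviations do not show to pair them, calls were 13 in the EglN2 shRNA line, 42 in the Scr line, 150 in the mean of both lines (3 synthetases) and 32 at day 2.

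Over 37 results of 15 named synthetases and 579 alternatives, 559 kept direction and side of the threshold, 10 lost a call, 8 gained one and 2 reversed. The lost calls all belong to CARS1 in the mean of both lines, the only result called in the main fit. It was called in 5 of its 15 alternatives. The other results started without a call, so keeping their side of the threshold says little. The cytosolic median change minus the mitochondrial median change, in the mean of both lines, stayed positive in every setting run. The gap between the array medians of levels did not show this contrast. That gap was lower at day 2 in the Scr line, and its days overlapped in the EglN2 shRNA line.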
